A study of Rattus norvegicus with 14 samples.

Results

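Persistent liver lesions of rats that had received rapamycin were compared with those of rats that had received placebo, gene by gene. The comparison used 8 of the 14 arrays of the study and 6 of its 12 animals, chosen by their labelled group. The study's other animals entered the fit only through its estimate of the spread. The comparison covered 14497 genes, each read from 1 of the 28826 probe sets of the array (the brightest where a gene had several). All 6 animals were male F344 rats taken through the Solt-Farber protocol of chemical liver carcinogenesis. Each was injected intraperitoneally on day 1 with diethylnitrosamine, a DNA-damaging carcinogen, at 200 mg/kg. On day 14 a 2.5 mg pellet of 2-acetylaminofluorene, which keeps normal hepatocytes from dividing, was implanted to release over 14 days. Partial hepatectomy followed on day 21, together with a pellet that released either placebo or rapamycin (2.5 mg/kg per day) over 21 days. Animals were killed on day 70, after the release time of that pellet had passed. Lesions that stained for GSTP, the placental glutathione S-transferase, were then cut by laser from formalin-fixed, paraffin-embedded sections, so the 6 samples share the carcinogen, the growth block and the surgery and differ by label in the pellet alone. Each group held 3 animals. Rapamycin animal 3 was run on 3 arrays, the first pair from the same RNA and the last from a second laser capture, and these were averaged into 1 value.

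Rapamycin binds the small protein FKBP12, and the complex blocks mTOR complex 1, the kinase assembly through which amino acids, insulin and growth factors drive protein synthesis, ribosome production and lipid synthesis and hold back autophagy. In liver, the same pathway acts on cholesterol and fatty acid genes through the SREBP transcription factors and on amino acid genes through ATF4. Foci of the Solt-Farber model are clones of altered hepatocytes with raised NRF2-driven detoxifying enzymes, GSTP among them, and with reduced expression of many genes of the mature hepatocyte. Because tissue was taken after the pellet's release time, the comparison addresses what differed in lesions that persisted, not the acute response to the drug.

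The GSTP marker was present in every animal. Gstp1, which encodes the stained protein, read 3743, 3748.5 and 4639 intensity units in placebo animals 1 to 3 and 3827, 4363 and 1814 in rapamycin animals 1 to 3, against a mean of 110 in normal liver (geometric mean of 3 animals, as for every normal liver value given here). The rapamycin group overlapped the placebo group and its animal 3 was the lowest. The difference, rapamycin minus placebo, was -0.37 ± 0.27 on the log2 scale (± is the standard error of the limma fit, n = 3 and 3 animals), and 0.02 ± 0.19 with rapamycin animal 3 left out. The hepatocyte product albumin (Alb) lay between 6131 and 7607 in the 6 animals.

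Rapamycin animal 3 stood apart from every other foci animal, as the submitters' own design text records of their clustering. Its 3 arrays spanned 1.57, 1.59 and 1.71 log2 units between the quartiles of all genes, against 2.14 to 2.61 in the other 5 foci animals. The median absolute log2 difference between its own arrays was 0.188 to 0.236, about as large as the 0.167 to 0.288 between pairs of the other 5 animals, whereas between it and another animal the figure was 0.382 to 0.621. All 3 of its arrays lay above all 5 other foci animals for 3468 genes and below them for 4346. The median SD of a gene was 0.33 over the 3 rapamycin animals, 0.12 over rapamycin animals 1 and 2 and 0.21 over the placebo animals. Its narrower signal range was shared by its second laser capture. The part of RNA quality in these differences was not tested. The leading genes and most gene lists below are therefore also given without this animal. The samples are bulk captures, in which fewer cells of a type and less RNA per cell cannot be told apart.

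**Figure D1:**
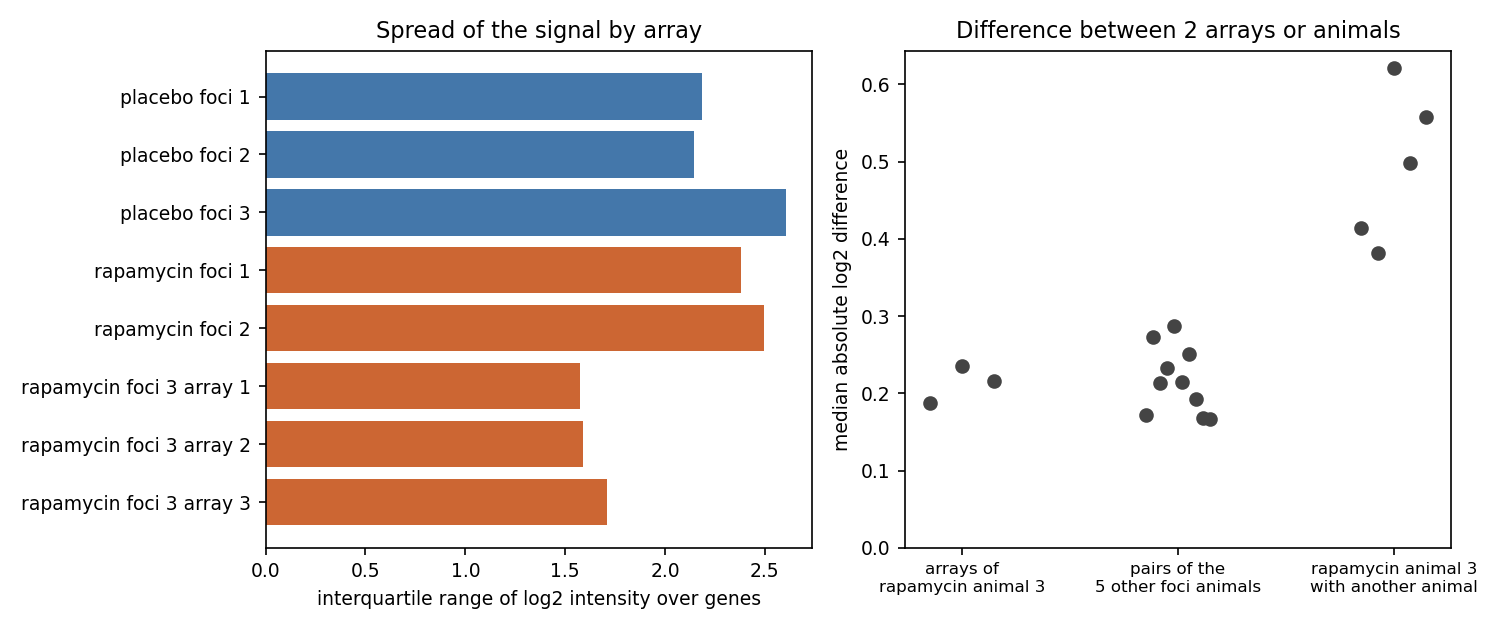
Bars give the interquartile range, in log2 units and over 14497 genes, on each of the 8 foci arrays (blue placebo, orange rapamycin), and points give the median absolute log2 difference for pairs of arrays or animals. The arrays of rapamycin animal 3 have the narrowest ranges, 1.57 to 1.71, and this animal differs from the other 5 by 0.382 or more.

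No gene passed an adjusted p under 0.05 between the foci groups in the main fit (limma, Benjamini-Hochberg adjustment over 14497 genes, 0% called). This fit took its spread from all 12 animals of the 4 groups. The smallest adjusted p was 0.512, for Cyp4a3. At an unadjusted p under 0.05 there were 483 genes (3.33%), 250 with a higher mean after rapamycin (1.72% of those tested) and 233 with a lower mean (1.61%). With only the 6 foci animals in the fit there were 205, and 0 genes passed the adjusted threshold. The groups did not overlap for 875 genes (6.04%), of which 526 were higher (3.63%) and 349 lower (2.41%). The group means differed at least 2-fold for 19 genes upward and 22 downward, and the median difference over all genes was 0.01. That median was -0.10 among genes with a mean log2 intensity of at least 5 and -0.16 at 6. Shares of all genes given below are not matched for intensity. For a single gene, 3 animals against 3 can reach no exact permutation p below 0.1.

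With rapamycin animal 3 left out, 3 genes rose (0.0207% of those tested, adjusted p under 0.05) and none fell. These were Cyp2a2 and Cyp3a23-3a1, cytochromes P450 of steroid and drug metabolism, and Inhbe, the activin E subunit secreted by hepatocytes. None of the 3 passed with only the 5 other foci animals in the fit, or after quantile normalization without animal 3. At an unadjusted p under 0.05 the main fit without animal 3 gave 852 genes (5.88%), 655 higher (4.52%) and 197 lower (1.36%), and 54 genes were at least 2-fold higher against 6 lower. Rapamycin animals 1 and 2 both lay above all placebo animals for 1689 genes (11.7%) and below them for 1056 (7.28%). Without rapamycin animal 2 instead, 0 genes passed the adjusted threshold and 1483 had an unadjusted p under 0.05, of which 607 were higher and 876 lower, so the excess of higher genes is seen with animal 3 left out and not with animal 2 left out. Without placebo animal 3 instead, 2 genes passed (0.0138%): Cyp4a3 rose (1.55 ± 0.22, adjusted p = 0.0459) and Dbp fell (-1.67 ± 0.20, adjusted p = 0.0211). With all animals kept but arrays weighted by quality, 541 genes passed (3.73%), of which 436 rose (3.01%) and 105 fell (0.724%). The weights came from gene-by-gene estimation, since the default estimation did not converge. They were 4.03, 1.00 and 0.110 for rapamycin animals 1 to 3, so animal 1 dominated the weighted rapamycin mean. With each array's interquartile range as a covariate 12 passed (0.0828%), Cyp4a3, Atf5, Inhbe and Cyp2a2 among them.

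Cyp2a2, a P450 of the male rat liver that hydroxylates testosterone, read 97.6, 124 and 129 in the placebo animals and 283, 320 and 120 in the rapamycin animals. Rapamycin animals 1 and 2 were above every placebo animal and animal 3 lay among them. The difference was 0.93 ± 0.30 with all 3 rapamycin animals (adjusted p = 0.985) and 1.38 ± 0.19 without animal 3 (adjusted p = 0.0147). Cyp3a23-3a1 read 39.0, 78.9 and 85.6 after placebo and 257, 209 and 57.6 after rapamycin, a difference of 1.19 ± 0.45, and 1.86 ± 0.28 without animal 3 (adjusted p = 0.0213). Its animal 3 again fell within the placebo range, on all 3 arrays (63.6, 60.9 and 49.4). Inhbe read 76.9, 70.2 and 66.0 after placebo and 185, 139 and 102 after rapamycin, with no overlap between the groups, a difference of 0.96 ± 0.21, and 1.17 ± 0.18 without animal 3 (adjusted p = 0.0213). P450 genes of the same subfamily are close copies, so a probe set can also read a neighbour's transcript.

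The 10 genes with the largest moderated t among those higher after rapamycin included genes of hepatocyte lipid and hormone metabolism, and are given here as values. Cyp4a3, a fatty acid omega-hydroxylase and a target of the lipid sensor PPARalpha, read 263, 357 and 497 after placebo and 973, 780 and 953 after rapamycin, with 2053 in normal liver. The lowest rapamycin animal was above the highest placebo animal, and the difference was 1.32 ± 0.22 (adjusted p = 0.512; 1.27 ± 0.23 without animal 3). Atf5, a transcription factor of the amino acid and mitochondrial stress responses, read 293, 417 and 394 against 716, 744 and 699, a difference of 0.98 ± 0.18 (adjusted p = 0.521; 1.00 ± 0.19 without animal 3). For both genes rapamycin animal 3 lay near animals 1 and 2.

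The other activin-type subunit made by hepatocytes, Inhbc, read 52.1, 61.2 and 59.5 after placebo and 148, 96.5 and 78.8 after rapamycin, a difference of 0.85 ± 0.22 (1.05 ± 0.20 without animal 3). Apoa4, an apolipoprotein of triglyceride-rich particles, read 252, 277 and 284 against 492, 471 and 444, a difference of 0.79 ± 0.19 (0.83 ± 0.20 without animal 3). Apoa5, which promotes the clearance of plasma triglyceride, read 186, 220 and 270 against 460, 430 and 302, a difference of 0.81 ± 0.21 (1.00 ± 0.19 without animal 3). In these genes the groups did not overlap, and each had an adjusted p of 0.985. Stac3, known as an adaptor of muscle calcium channels, read 14.4 to 21.0 after placebo and 28.8 to 33.4 after rapamycin. The interferon-induced apolipoprotein L gene Apol9a read 64.9 to 103 against 122 to 218. Cyp17a1, the steroid 17-hydroxylase, read 16.4 to 21.7 against 27.9 to 67.2. The placebo values of Stac3 lay below the array medians (21.2 to 22.5), and those of Cyp17a1 near or below them. Crot, which moves medium-chain acyl groups out of the peroxisome, was the single gene of the 10 whose groups overlapped: it read 32.7, 33.2 and 56.6 against 89.7, 84.4 and 54.9. Normal liver read 388 for Stac3, 1259 for Apoa4, 708 for Apoa5 and 323 for Crot, values that are set here beside the foci and not tested.

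The 10 genes with the largest moderated t among those lower after rapamycin included an elastase, efflux and detoxifying genes and epithelial adhesion genes. Mmp12, the macrophage metalloelastase, read 56.7, 46.2 and 66.7 after placebo and 33.1, 28.0 and 20.4 after rapamycin, a difference of -1.07 ± 0.22 (-0.88 ± 0.21 without animal 3). Tceal9, a small protein of the TCEAL family, read 303, 222 and 255 against 102, 151 and 45.8, a difference of -1.53 ± 0.33 (-1.05 ± 0.22 without animal 3). Abcc4, an efflux pump for bile acids and conjugates, read 338, 378 and 316 against 210, 231 and 171, a difference of -0.76 ± 0.17 (-0.64 ± 0.17 without animal 3). The groups did not overlap for any of these, and each had an adjusted p of 0.985.

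Aldh3a1, an aldehyde dehydrogenase used as a marker of rat liver tumours, read 71.9 to 84.8 after placebo and 38.7 to 58.4 after rapamycin, a difference of -0.74 ± 0.18, against 11.1 in normal liver. Defb1, an epithelial defensin, read 310, 328 and 455 against 196, 202 and 57.5, a difference of -1.45 ± 0.39, against 14.9 in normal liver. Ddr1, a collagen receptor of epithelia, read 122 to 149 against 47.3 to 102, and Tes, a protein of focal adhesions, read 132 to 190 against 43.2 to 110. Animal 3 was the lowest rapamycin animal in each of these 4 genes. Without it, Defb1 differed by -0.85 ± 0.24, Tes by -0.84 ± 0.24, Ddr1 by -0.67 ± 0.22 and Aldh3a1 by -0.62 ± 0.18. Dbp, a clock-driven transcription factor, read 293, 239 and 101 after placebo and 77.2, 99.0 and 75.8 after rapamycin, so placebo animal 3 was close to the rapamycin animals. Fars2, the mitochondrial phenylalanyl-tRNA synthetase, read 70.0 to 78.4 against 38.4 to 53.2, and Lbh, a transcriptional cofactor, read 156 to 191 against 93.5 to 125.

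**Figure D2:**
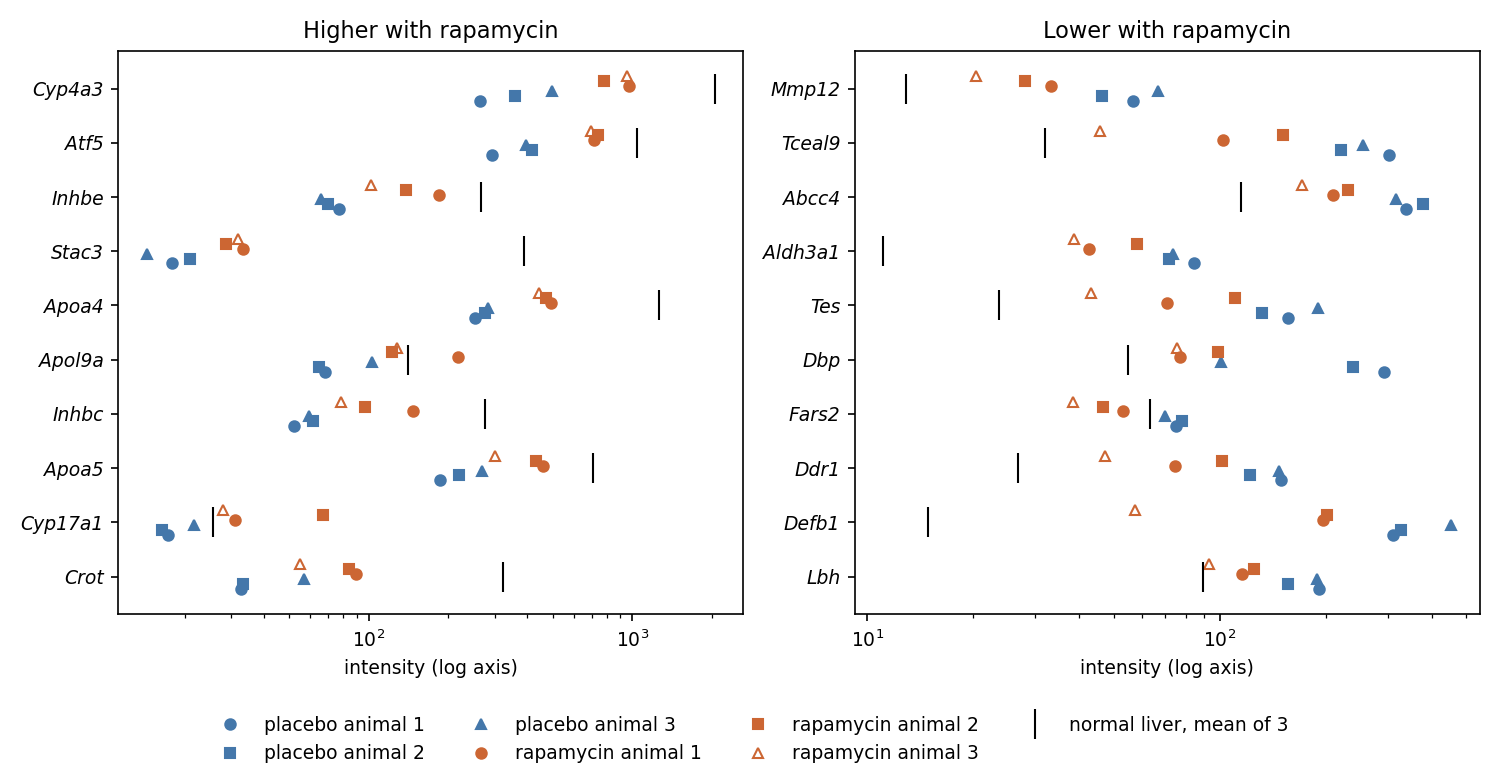
Intensity of each of the 6 foci animals (log axis) for the 10 genes of largest moderated t in each direction, with the mean of 3 normal livers as a black bar. Cyp4a3 runs from 263 to 497 in placebo animals and from 780 to 973 in rapamycin animals, and among the 20 genes only Crot has overlapping groups.

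For Mtor, Fkbp1a and Ddit4, at the centre of the drug's own pathway, the differences lay within the spread between animals. Mtor, the kinase, read 77.7, 65.5 and 92.5 after placebo and 87.2, 84.0 and 42.9 after rapamycin, a difference of -0.19 ± 0.25. Fkbp1a, which encodes FKBP12, read 409, 365 and 390 against 361, 371 and 155, a difference of -0.50 ± 0.28. Ddit4, a stress-induced mTOR inhibitor, differed by -0.28 ± 0.25. In each of these the low value came from animal 3, and without it the differences were 0.14 ± 0.19, -0.08 ± 0.19 and -0.07 ± 0.23.

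Of 26 measured mTOR complex members and regulators, 0 were higher and 1 was lower at an unadjusted p under 0.05 (against 1.72% and 1.61% of all genes). The lower gene was Sesn3, a member of the sestrins, which restrain mTOR complex 1, which read 161, 128 and 179 against 107, 129 and 42.3. The list's median was -0.20 with all animals and 0.05 without animal 3, which was the lowest of the 6 animals for 23 of the 26 genes, against 37.4% of all genes. That share is not matched to the intensity of the listed genes. Rheb, the small GTPase that activates mTOR complex 1, differed by -0.47 ± 0.30 and by -0.02 ± 0.19 without animal 3. Among 13 mTOR targets in translation 0 passed in either direction. Rps6kb1, the S6 kinase, read 47.9, 48.7 and 53.4 against 46.8, 50.2 and 23.3. Eif4ebp1, the translation repressor that mTOR switches off, read 259, 244 and 257 against 219, 275 and 161. These 2 genes overlapped between groups.

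In lists of processes under the control of mTOR, which drives ribosome production and holds back autophagy, animal 3 had the lowest median of the 6 animals. The 72 cytosolic ribosomal protein genes had a median of -0.38 with all animals and 0.00 without animal 3, which was lowest for 68 of them. The 74 respiratory chain genes had a median of -0.24 and 0.26 without animal 3, which was lowest for 69. The 31 autophagy and lysosome genes had a median of -0.15 and 0.10 without it. Ctsl, a lysosomal protease, read 1057, 920.4 and 1455 against 830.1, 1067 and 327. Ribosome biogenesis (20 genes) gave -0.08 and 0.20, with the nucleolar helicase Ddx21 at 164, 204 and 148 against 170.4, 250.3 and 372, which made animal 3 the highest there. With all animals, at most 2 genes of each of these lists had an unadjusted p under 0.05. Without animal 3, 6 respiratory chain, 4 autophagy and lysosome, 3 ribosome biogenesis and 0 ribosomal protein genes were higher and 0 were lower, against 4.52% and 1.36% of all genes.

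Of 24 measured ATF4 target genes, 2 were higher and 2 lower at an unadjusted p under 0.05 (1.72% and 1.61% of all genes), and the median was 0.05. Without animal 3 there were 4 higher and 2 lower (4.52% and 1.36% of all genes), with a median of 0.16. Atf5 (above) and Phgdh, the entry enzyme of serine synthesis, were the higher pair, Phgdh reading 56.6, 49.4 and 60.7 against 65.0, 71.5 and 84.7. The lower pair was Atf3, a stress-induced transcription factor, at 72.8, 68.6 and 98.4 against 54.0, 45.6 and 46.1, and Slc7a11, the cystine transporter, which is also an NRF2 target, at 257, 169 and 334 against 103, 186 and 25.4. Animal 3 was the lowest for 10 of the 24 genes. Inhbe is also induced by this response but was outside the list.

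Most of the listed P450 and sex-biased genes were higher in rapamycin animals 1 and 2 than in the placebo animals. The list mixes both kinds of gene, so it is no measure of male-type expression alone. Of 23 measured P450 and sex-biased genes, 6 were higher and 0 lower at an unadjusted p under 0.05 (1.72% and 1.61% of all genes), the median was 0.40, and 22 differences were positive. Without animal 3 the median was 0.63, with 16 higher and 0 lower (against 4.52% and 1.36% of all genes). Animals 1 and 2 both lay above all placebo animals for 18 of the 23 genes (78.3%, against 11.7% of all genes). That share was near those of cholesterol synthesis (83.3%), mature hepatocyte (77.8%) and acute phase and complement genes (75%). Cyp2c11, the main male-specific P450 of rat liver, read 52.0, 230.01 and 60.8 after placebo and 352, 267 and 159 after rapamycin, against 1713 in normal liver. Cyp3a2, another male-predominant P450, read 34.6, 64.8 and 103 against 286, 212 and 131, a difference of 1.70 ± 0.52. Placebo animal 2 was inside the rapamycin range for Cyp2c11, whereas the groups did not overlap for Cyp3a2. Cyp2c12, the female-specific P450, which was picked after its values were seen, read 377, 446 and 762 against 449, 642 and 107. Rapamycin animals 1 and 2 lay inside the placebo range for it and animal 3 lay below.

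Other genes of the mature hepatocyte were also higher in rapamycin animals 1 and 2, with median deviations of 0.38 and 0.60 from the mean of the 6 animals, and lowest in rapamycin animal 3 (-0.60). Of 27 mature hepatocyte genes, 3 were higher and 1 lower at an unadjusted p under 0.05 with all animals (1.72% and 1.61% of all genes), with a median of 0.14. Without animal 3 there were 19 higher and 1 lower (4.52% and 1.36% of all genes), with a median of 0.52. Agxt, which detoxifies glyoxylate, read 32.9, 47.7 and 44.5 against 74.9, 103 and 59.3, a difference of 0.91 ± 0.24. Pck1, the committed enzyme of gluconeogenesis and a FOXO target, read 591, 444 and 700.5 against 1174, 1546 and 669. Gnmt, which uses up S-adenosylmethionine, read 111, 119 and 142 against 214, 237 and 152. Animals 1 and 2 exceeded every placebo animal in all 3, while for Pck1 animal 3 lay inside the placebo range. The lower gene was Sds, serine dehydratase, at 102, 72.0 and 40.4 against 24.8, 52.7 and 29.4. Among 12 FOXO targets 3 were higher with all animals (median 0.05) and 4 without animal 3 (median 0.30), and G6pc1, glucose-6-phosphatase, read 340.4, 370.03 and 265 against 814, 519 and 325.

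Acute phase and complement genes encode proteins that hepatocytes secrete into plasma. Of 20 genes, 20 differences were positive, 6 were higher and 0 lower at an unadjusted p under 0.05 (1.72% and 1.61% of all genes), and the median was 0.38. Without animal 3, 19 differences were positive, 16 were higher and 0 lower (4.52% and 1.36% of all genes), and the median was 0.59. Itih4, an inhibitor heavy chain that rises in inflammation, read 805, 884 and 1444 against 2008, 1964 and 1292. Fga, the fibrinogen alpha chain, read 1133, 1309 and 1959.9 against 2600.3, 2239.7 and 1849, a difference of 0.63 ± 0.20. Hp, haptoglobin, read 2040.3, 1839 and 2943 against 3593, 3222 and 2613. In all 3 genes placebo animal 3 lay above rapamycin animal 3, and 0 of the 20 genes had separate groups.

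Of 20 genes of bile acid synthesis and transport, 2 were higher and 1 lower at an unadjusted p under 0.05 (1.72% and 1.61% of all genes), with a median of 0.19. Without animal 3 there were 9 higher and 0 lower (4.52% and 1.36% of all genes), with a median of 0.44. Slc27a5, which conjugates bile acids to coenzyme A, read 64.2, 73.8 and 109 against 187, 149 and 119. Cyp8b1, which sets the cholic acid share, read 138, 217 and 184 against 208, 252 and 259.8. Abcc2, the canalicular conjugate pump, was lower at 1217, 964 and 1009 against 717, 1074 and 309, where animal 2 was inside the placebo range, and differed by -0.27 ± 0.21 without animal 3.

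Sterol and fatty acid synthesis genes, both under SREBP control, were higher in animals 1 and 2 and low in animal 3. Of 18 cholesterol synthesis genes, 0 passed in either direction with all animals (median 0.13). Without animal 3, 11 were higher and 0 lower (4.52% and 1.36% of all genes), with a median of 0.51. Both other rapamycin animals were above all placebo animals for 15 of the 18, against 11.7% of all genes. Fdps, farnesyl diphosphate synthase, read 368, 378 and 530.4 against 742, 714 and 290.2. Lss, lanosterol synthase, read 54.3, 65.9 and 82.3 against 95.2, 97.2 and 64.6. Of 19 fatty acid synthesis genes, 0 passed with all animals (median 0.11) and 7 were higher and 0 lower without animal 3 (median 0.52). Mlxipl, the glucose-sensing factor ChREBP, read 126, 124 and 152 against 186, 209 and 107. Among 23 fatty acid oxidation and PPARalpha targets 2 were higher at an unadjusted p under 0.05 (1.72% of all genes), Cyp4a3 and Fabp1, with a median of 0.07. Without animal 3 there were 9 higher and 0 lower, with a median of 0.31. Fabp1, the liver fatty acid binding protein, read 987, 1382 and 1252 against 2055, 2037 and 1344. Rapamycin animal 3 was inside the placebo range for it.

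For interferon-stimulated genes the order of animals crossed the treatment groups. Of 29 measured genes, 6 were higher and 0 lower at an unadjusted p under 0.05 (1.72% and 1.61% of all genes), with a median of 0.50. Without rapamycin animal 3 there were 22 higher and 0 lower (4.52% and 1.36% of all genes), with a median of 0.82, whereas without rapamycin animal 1 the median was 0.18. The median was the highest of the 32 lists with all animals and under 20 of 25 alternative settings. Rapamycin animal 1 was the highest animal for 27 of the 29 genes, against 8.79% of all genes. The median deviation from the mean of the 6 animals was 0.90 in rapamycin animal 1, 0.44 in placebo animal 3, 0.16 in rapamycin animal 2, -0.34 in rapamycin animal 3, and -0.53 and -0.63 in placebo animals 2 and 1. The groups overlapped for every one of the 29 genes.

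Isg15, a ubiquitin-like protein induced by interferon, read 35.8, 33.1 and 125 after placebo and 399, 104 and 68.7 after rapamycin, a difference of 1.42 ± 0.54. Mx2, an antiviral GTPase, read 24.8, 24.7 and 83.9 against 159, 70.8 and 42.7. Ifit3 and Tap1 encode an antiviral RNA-binding protein partner and the peptide transporter of antigen presentation. Ifit3 read 14.1, 13.6 and 24.5 against 51.2, 21.4 and 20.1, and Tap1 read 58.3, 56.0 and 113 against 199, 97.0 and 82.9. In each of the 4 genes rapamycin animal 1 was the highest and placebo animal 3 the second highest. The interferon-gamma chemokine Cxcl9 read 143, 171 and 505 against 754, 414 and 82.9, and Cxcl10, picked after its values were seen, read 55.4, 42.1 and 206 against 372, 120.3 and 74.1.

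**Figure D3:**
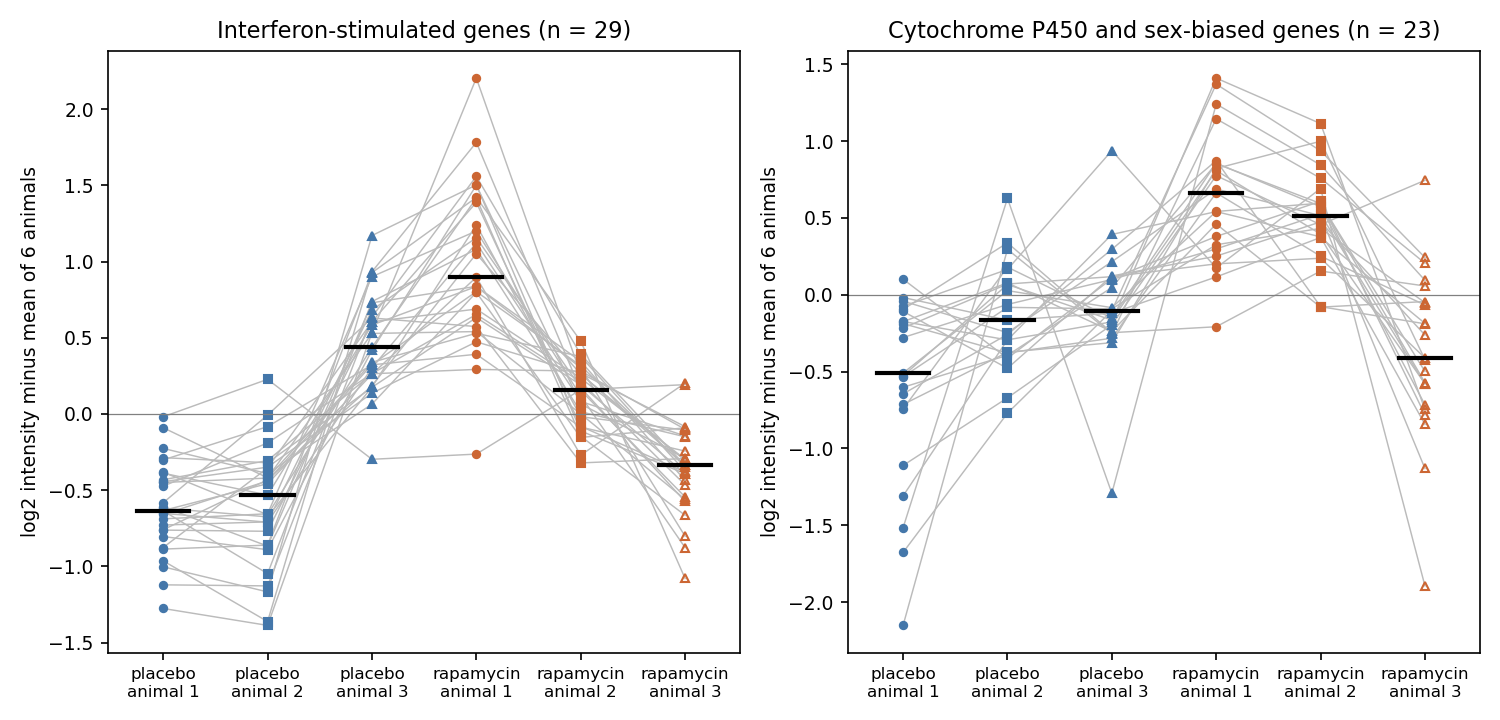
Log2 intensity minus the mean of the 6 foci animals for each of 29 interferon-stimulated genes (left) and 23 P450 and sex-biased genes (right); lines join a gene and black bars are medians. The interferon medians are highest in rapamycin animal 1 (0.90) and placebo animal 3 (0.44), whereas the P450 medians are highest in rapamycin animals 1 and 2 (0.66 and 0.51).

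Promoters are shown for 5 of the genes described above, each holding letters known to bind regulators of these groups. These genes were picked by hand, and others of these groups also hold such letters, so they only illustrate the patterns. Each is the 250 bases before the annotated start, on the gene's strand, from RefSeq (build GRCr8). The letter patterns were searched on both strands and were chosen after values were seen. GAAANNGAAA, the core of the interferon response element, was in 3.29% of 27457 rat promoters and in 13 of the 23 interferon-stimulated genes with a promoter entry. TGATGNAA, the element of ATF4 with C/EBP factors, was in 3.27% of all promoters and in 6 of 22 ATF4 target genes. AGGTCA, the hexamer bound by nuclear receptors, was in 13.7% of all promoters in 7 of 21 P450 and sex-biased genes and in 3 of 19 fatty acid oxidation and PPARalpha targets, the lists that hold Cyp4a3. Capitals mark the matches on either strand. Apol9a (chr7:111028214-111028463, minus strand) has a pair of overlapping matches to the interferon pattern, Ifit3 (chr1:241527076-241527325, plus strand) and Tap1 (chr20:4668544-4668793, minus strand) 1 each, Inhbe (chr7:65064520-65064769, minus strand) 1 match to the ATF4 pattern, and Cyp4a3 (chr5:134352237-134352486, minus strand) 1 match to the nuclear receptor hexamer. A match describes the letters and shows no binding.
Apol9a: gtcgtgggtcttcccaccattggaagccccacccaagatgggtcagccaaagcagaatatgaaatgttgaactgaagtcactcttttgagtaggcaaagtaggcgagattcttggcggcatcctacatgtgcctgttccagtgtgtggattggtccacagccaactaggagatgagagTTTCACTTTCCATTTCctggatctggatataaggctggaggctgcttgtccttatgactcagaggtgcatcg
Ifit3: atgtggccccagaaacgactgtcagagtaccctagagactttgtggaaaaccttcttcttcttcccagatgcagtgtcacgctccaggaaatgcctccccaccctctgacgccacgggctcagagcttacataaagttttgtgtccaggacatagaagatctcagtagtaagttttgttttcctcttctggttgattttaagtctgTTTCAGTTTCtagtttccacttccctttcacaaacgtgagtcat
Tap1: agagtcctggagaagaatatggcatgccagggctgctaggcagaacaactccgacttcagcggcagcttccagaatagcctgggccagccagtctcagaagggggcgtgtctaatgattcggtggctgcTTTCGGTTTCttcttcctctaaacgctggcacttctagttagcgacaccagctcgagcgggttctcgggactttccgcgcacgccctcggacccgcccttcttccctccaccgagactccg
Inhbe: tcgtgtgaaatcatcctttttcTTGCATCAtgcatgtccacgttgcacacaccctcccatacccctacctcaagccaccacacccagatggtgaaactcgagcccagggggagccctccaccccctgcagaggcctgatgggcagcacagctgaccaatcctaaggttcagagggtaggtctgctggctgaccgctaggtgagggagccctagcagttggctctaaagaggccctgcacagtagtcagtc
Cyp4a3: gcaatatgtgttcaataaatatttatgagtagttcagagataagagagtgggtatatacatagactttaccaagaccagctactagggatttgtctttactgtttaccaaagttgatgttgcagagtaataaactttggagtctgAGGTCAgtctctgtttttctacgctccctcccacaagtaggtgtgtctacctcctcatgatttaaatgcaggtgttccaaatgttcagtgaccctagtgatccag

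NRF2 target genes and markers of the foci were lower on average, and animal 3 carried most of the difference. Of 22 NRF2 targets, 0 were higher and 8 lower at an unadjusted p under 0.05 (1.72% and 1.61% of all genes), with a median of -0.62, and 0 of the 22 differences were positive. Without animal 3 the median was -0.12, 0 genes were higher and 3 lower (4.52% and 1.36% of all genes), and 6 differences were positive. Animal 3 was the lowest animal for 21 of the 22. Nqo1, a quinone reductase, read 496, 447 and 669 after placebo and 306, 447 and 77.0 after rapamycin, a difference of -1.27 ± 0.45 (-0.52 ± 0.22 without animal 3). Txnrd1, thioredoxin reductase, read 264, 257 and 314 against 204, 241 and 79.0. Slc7a11 differed by -1.63 ± 0.53, and by -0.82 ± 0.32 without animal 3. Gstp1, which is part of the selection by stain, was the marker of capture and is no finding here.

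Of 20 focus and liver tumour markers, 0 were higher and 5 lower at an unadjusted p under 0.05 (1.72% and 1.61% of all genes), with a median of -0.38. Without animal 3, 1 was higher and 3 lower (4.52% and 1.36% of all genes), with a median of -0.17. Cd24, a surface protein of hepatic progenitors and tumours, read 217, 188 and 192 against 108, 162 and 56.7, a difference of -0.99 ± 0.30. Anxa2, an annexin of dedifferentiated hepatocytes, read 313, 217 and 439 against 186, 238 and 49.8. Abcb1b, a multidrug efflux pump, read 273, 181 and 239 against 143, 191 and 57.1. The groups were separate for Cd24 and overlapped for the other 2. Of 22 biliary and oval cell markers 0 were higher and 3 lower, with a median of -0.16, and 1 was higher and 1 lower without animal 3 (median -0.17). Epcam, an epithelial adhesion molecule of bile duct and progenitor cells, read 36.3, 39.7 and 70.1 against 28.8, 38.1 and 16.2, so placebo animal 3 was the highest.

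With all animals, few genes of division, oxygen response and the IGF axis had an unadjusted p under 0.05. Over all genes the shares were 1.72% higher and 1.61% lower. Of 36 cell cycle genes, 1 was higher and 1 lower at an unadjusted p under 0.05, with a median of -0.13 (0.01 without animal 3). Ccnb2, a mitotic cyclin, read 65.9, 53.5 and 81.3 against 54.3, 49.9 and 43.7. Bub1b, a spindle checkpoint kinase, read 6.46, 6.93 and 6.35 against 10.1, 6.86 and 9.86, levels below the array median. Of 24 glycolysis and HIF1 targets (median -0.17, and -0.02 without animal 3) 1 was lower, Egln3, an oxygen-sensing hydroxylase, at 51.5, 33.1 and 51.6 against 32.0, 31.1 and 15.3, a difference of -0.84 ± 0.27 with separate groups. In the insulin and IGF axis (15 genes, median 0.03, and 0.02 without animal 3) Igfbp3, a binding protein of IGFs, was lower at 254, 241 and 391 against 171, 268 and 73.7, a difference of -0.94 ± 0.36. Without animal 3 the differences were -0.50 ± 0.20 for Egln3 and -0.43 ± 0.24 for Igfbp3. On the IGF axis 3 genes were higher and 0 lower without animal 3 (4.52% and 1.36% of all genes). Among these 3 were Igf1 (0.64 ± 0.20) and Igfals (0.62 ± 0.23). Of 13 p53 targets 0 passed in either direction with all animals (median -0.14). Without animal 3, 3 were higher and 0 lower (4.52% and 1.36% of all genes), with a median of 0.04. The 16 clock genes held 1 higher gene, Npas2, and 4 lower ones, among them Dbp, Per3 (39.4, 37.2 and 26.0 against 21.9, 27.1 and 22.5) and Bhlhe40 (252, 246 and 199 against 168, 183 and 81.6). Without animal 3 there were 3 higher and 2 lower (4.52% and 1.36% of all genes), and the list median was -0.06 against -0.10 with all animals. The sources used here give no hour of tissue collection.

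Markers of other cell types were read beside these groups, since a capture can include cells next to the lesion's hepatocytes. The 23 macrophage markers had a median of -0.30 (-0.09 without animal 3), with 0 higher and 3 lower at an unadjusted p under 0.05 (1.72% and 1.61% of all genes). Their summed intensity was 1849 to 3009 in placebo and 1251 to 2247 in rapamycin animals. Cd163, a scavenger receptor of Kupffer cells, read 48.5, 50.2 and 44.1 against 33.9, 46.0 and 29.4. The general macrophage marker Cd68 was highest in placebo animal 3 at 264 and lowest in rapamycin animal 3 at 66.1. The part of macrophages in the difference in Mmp12 was not tested. The 27 lymphocyte markers had 4 higher and 1 lower (1.72% and 1.61% of all genes), with a median of 0.20. Without animal 3 they had 3 higher and 1 lower (4.52% and 1.36% of all genes), with a median of 0.11. They summed to 668 to 749 in placebo and 758 to 855 in rapamycin animals, so the closest animals of the groups read 749 and 758. The sum of 855 was that of rapamycin animal 3. Its neutrophil marker sum was also the highest of the 6, at 253 against 179 to 209. The part of the narrower range of its arrays in these sums was not tested. Prf1, perforin of cytotoxic cells, read 18.1, 17.4 and 19.4 against 25.0, 23.7 and 26.1. Its placebo values lay below the array medians (21.2 to 22.5) and its rapamycin values near theirs (21.6 to 25.4). The defining T cell and B cell genes Cd3d, Cd3e and Ms4a1 lay below the array median in all 6 animals. The part of lymphocytes in the interferon-stimulated genes was not tested.

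The 25 stellate cell and matrix genes had a median of -0.21 (0.02 without animal 3), with 0 higher and 2 lower (1.72% and 1.61% of all genes). Their sum was 2570 to 3806 in placebo and 2048 to 3319 in rapamycin animals. The lower pair was Lox, which crosslinks collagen, at 20.8, 19.6 and 22.6 against 12.8, 13.4 and 15.9, and Tagln, a contractile protein of myofibroblasts, at 77.0, 61.3 and 78.3 against 46.4, 49.3 and 35.7. The groups were separate for both genes, with adjusted p of 0.985. The rapamycin values of Lox lay below the array median. The 18 endothelial markers held 0 genes at an unadjusted p under 0.05. Without animal 3 they held 1 higher and 1 lower (4.52% and 1.36% of all genes). The 13 neutrophil markers held 0 with all animals and 0 without animal 3. Their defining genes S100a8, S100a9 and Mpo lay below the array median in all 6 animals. Of 7 red cell markers, 1 was higher, Hemgn, at 7.63, 8.45 and 7.23 against 11.8, 7.70 and 17.3, levels below the array median. Of 13 antigen presentation genes of MHC class II, 1 was lower, the lysosomal protease Lgmn, and placebo animal 3 was the highest animal for 10. The median of these genes was -0.12, and 0.09 without animal 3.

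**Figure D4:**
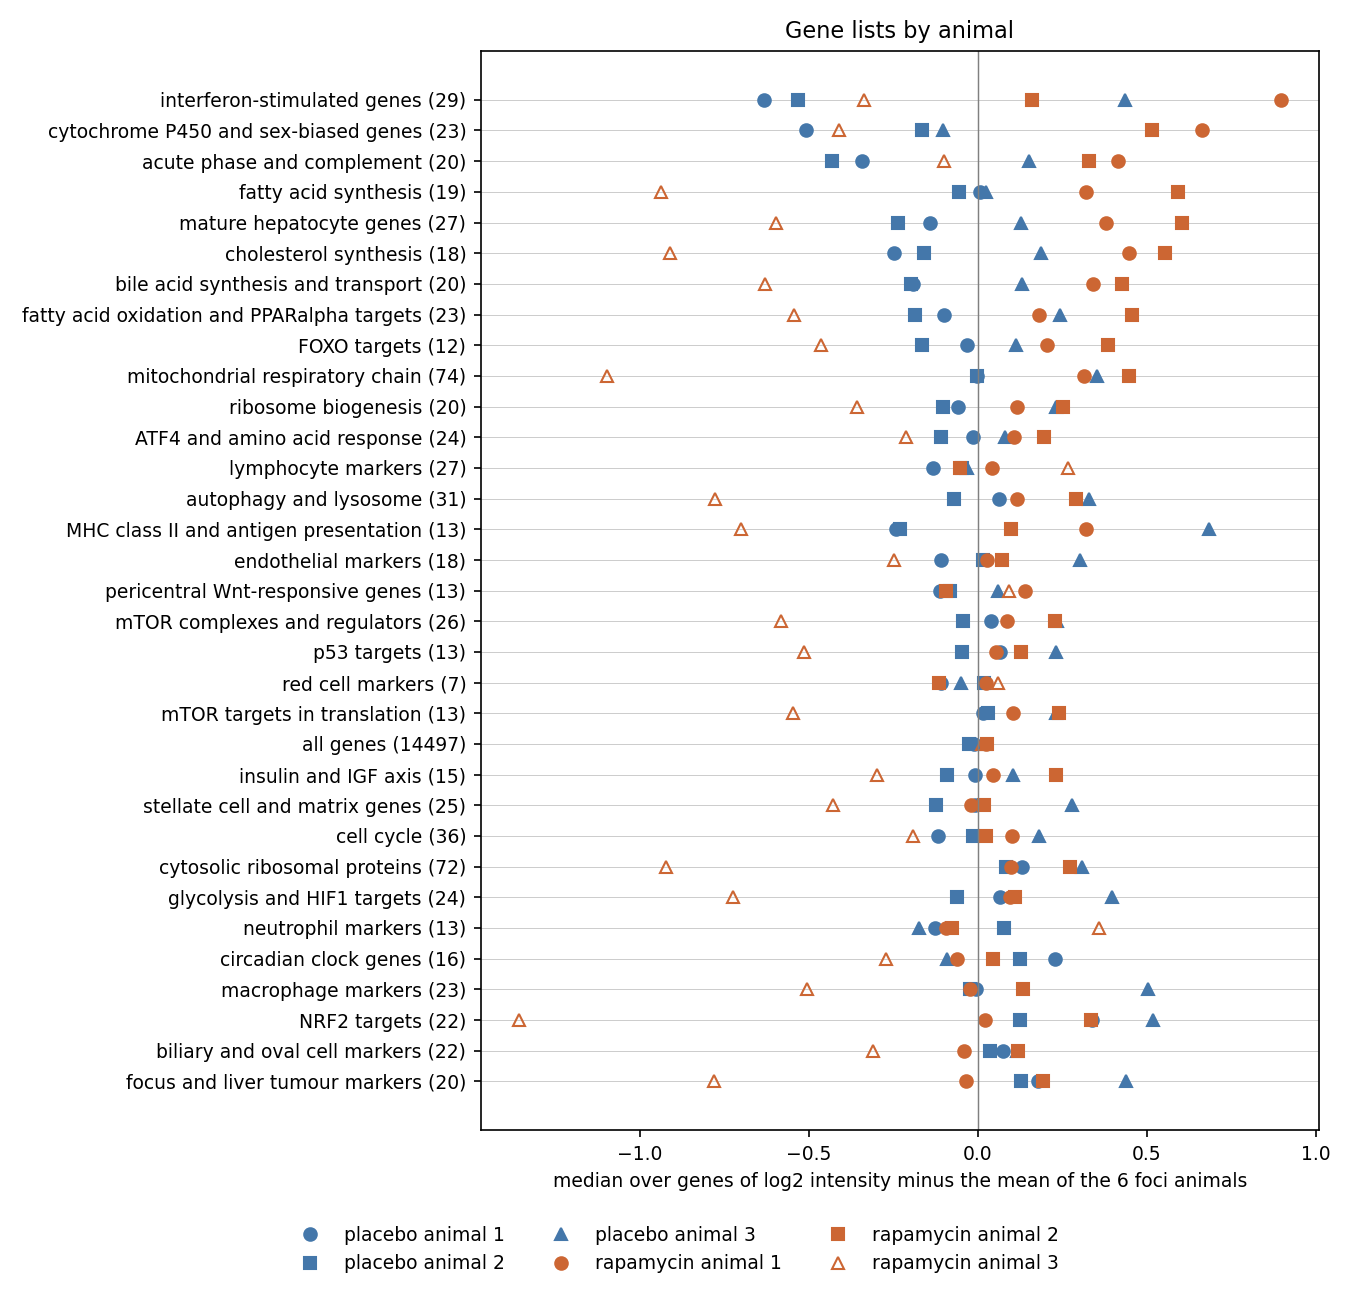
For each of the 32 gene lists and for all genes (member numbers in brackets), points give each foci animal's median log2 intensity minus the mean of the 6 animals. Rapamycin animals 1 and 2 lie to the right of all placebo animals for P450, cholesterol and mature hepatocyte genes, and rapamycin animal 3 lies lowest in most lists, down to -1.36 for NRF2 targets.

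The genes on which rapamycin animal 3 departed most from animals 1 and 2 were seen on each of its arrays. Among those higher in it, A2m, alpha-2-macroglobulin, an acute phase protein of the rat, read 155, 196 and 225 on its 3 arrays, against 35.3 and 23.4 in rapamycin animals 1 and 2 and 18.7 to 28.2 in the placebo animals. Golt1b, a vesicle transport protein, read 217, 225 and 130.5 on its arrays against 20.5 to 40.3 in the other 5 foci animals. Spetex2g (69.7 in animal 3, 6.47 to 9.50 in the others), Spetex2el3 (308 against 18.0 to 51.8) and Spopfm2l2 (86.2 against 12.4 and 16.4 in rapamycin animals 1 and 2 and 42.6 to 66.5 after placebo) belong to rodent gene families with many near-identical copies, so the copy measured is uncertain. Among those lower in it, Snrpd1, a core splicing protein, read 15.3, 9.16 and 6.85 against 60.1 to 132 in the others, and Arpp19, a mitotic phosphatase inhibitor, read 75.6, 78.9 and 79.7 against 375 to 545. Trappc2l, Rpl22l1 and Cxcl9 were the remaining ones, with Trappc2l at 24.7 as the mean of its arrays against 129 to 219.9. These genes were selected for that departure, so the values describe it and were not tested.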

How the data were processed

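Laser-captured foci were measured on Affymetrix Rat Gene ST 1.0 arrays. The deposited intensity values were linear, and the submitters' processing notes name Partek 6.6 and RMA, with no role or order. For other upstream settings the sources used here give no value. The plan was written for log2 values, so these intensities were first converted to log2 without adding a pseudocount. The mean log2 of its 3 arrays stands for rapamycin animal 3. The number of arrays limits the precision.

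Of the probe sets, 15209 had 1 gene symbol in the platform annotation, 306 had several and 13311 had none. The first kind was used, and of a gene's probe sets the one with the highest mean over all arrays was taken. Group means of all 12 animals were fitted with limma 3.58.1 in R 4.3.3 (lmFit and eBayes, 2-sided, 8 residual and 6.38 prior degrees of freedom), with Benjamini-Hochberg adjustment and a threshold of 0.05. Labels do not say more of the replicates than that they are separate animals, so p-values measure the spread between these animals. The script was tested on simulated data.

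The text names Gstp1, Mtor, Ddit4 and Fkbp1a, the 10 genes of largest moderated t in each direction, genes called without rapamycin animal 3, the 5 highest and 5 lowest in that animal, and up to 4 members of smallest p in each list. Predicted genes, olfactory and vomeronasal receptors, small RNAs and pseudogenes were passed over. Markers of cell types are also given. Other names are said to be picked after seeing values. Members and lists were chosen with earlier results of these data known. Same-numbered animals of both groups deviated from their group means with correlations of -0.38, -0.49 and -0.68. Placebo animal 3 correlated at 0.63 and 0.58 with rapamycin animals 1 and 2. Deviations within a group of 3 sum to 0 and rapamycin animal 3 stood apart. These values therefore cannot decide whether the numbers pair the animals. Alternatives covered samples in the fit, scaling, array weights, intensity filters, probe sets and the handling of animal 3.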

Additional observations from a re-analysis of the deposited data

How the results depend on the processing

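With 3 animals a group and 1 of them apart, the counts depend on the settings. At an adjusted p under 0.05 the count was 0 with all animals. It was 541 with array quality weights (436 higher and 105 lower, 3.73% of genes), where rapamycin animal 3 had a weight of 0.110 and rapamycin animal 1 of 4.03. By list these held 24 of the 29 interferon-stimulated, 14 of the 23 P450 and 14 of the 20 acute phase genes, all higher. Rapamycin animal 2 had a weight of 1.00, so these counts rest mainly on animal 1. That animal was the highest of the 6 for 27 of the interferon-stimulated, 13 of the P450 and 12 of the acute phase genes, against 8.79% of all genes. With the interquartile range of each array as a covariate the count was 12: Cyp4a3, Atf5, Inhbe, Apoa5, Crot, Cyp2a2, Prox1 and Clpx rose, and Tceal9, Tes, Btnl8 and Mmp12 fell. Leaving out 1 animal gave 0 to 3. Of the alternatives added after the data were seen, each without rapamycin animal 3, the covariate gave 2 genes, Cyp2a2 and Inhbe, both higher. A fit of the 5 other foci animals gave 1, Spopfm2l2, which was lower, and quantile normalization gave 0. The other settings gave 0. At an unadjusted p under 0.05 the count of 483 became 205 with the 6 foci animals alone, 1028 after quantile normalization, 2705 with weights, 1273 with the covariate, 1194 over every probe set, 199 at a mean log2 intensity of at least 5 and 103 at 6 (these filters test 6775 and 3620 genes), and 337 to 1483 with 1 animal left out, the highest without rapamycin animal 2. The 3 added settings gave 1013 with the covariate, 816 with the 5 other foci animals and 857 after quantile normalization. Whether the numbers pair the animals could not be decided. With a replicate block, whatever the number means, 0 genes were called and 88 had an unadjusted p under 0.05. Except where the weights, the covariate or the filters show it by construction, the cause was not tested. Over the 25 alternatives 18 of the 151 named genes turned sign in at least 1, with Gstp1 from -0.61 to 0.02 and Mtor from -0.37 to 0.19. None of the 20 leading genes turned sign, but this is no test of them. They were selected by moderated t in the same data. All but Crot had separate groups, so leaving out or weighting animals could not turn their sign. The medians of 21 of the 32 lists turned sign in at least 1 alternative: ribosome biogenesis in 8, FOXO targets in 6, the respiratory chain in 5, fatty acid synthesis in 4, cholesterol synthesis in 2 and mature hepatocyte genes in 1. The interferon, P450, acute phase, bile acid, NRF2 and focus marker medians kept their sign in all 25, the interferon median running from 0.18 to 1.24.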
